A study of Mus musculus with 4 samples.

Results

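The Slc26 genes encode a family of membrane anion transporters that includes prestin, the motor protein of outer hair cells, and pendrin, the anion exchanger whose loss enlarges the inner ear. The listed members were taken by symbol, Slc26a1 to Slc26a8, Slc26a10 and Slc26a11, which are 10 of the 37239 gene identifiers in the deposited tables. They were measured by RNA-seq in whole cochleae of mice at postnatal day 8. The compared animals were littermates, either homozygous for the cello allele of Ikzf2 (cello) or carrying the normal gene (Ikzf2+/+, wild-type), with 2 libraries per genotype. Ikzf2 encodes helios, a DNA-binding transcription factor that outer hair cells express, and cello is, as background, a point mutation of it. It is present in every cell of the animal, so the comparison is not limited to hair cells. The labels do not say whether a library holds 1 animal or a pool, and p-values therefore measure the spread between these 4 libraries.

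Most Slc26 proteins exchange or conduct small anions such as chloride, bicarbonate, iodide, oxalate and sulphate. Prestin binds chloride but works mainly as a voltage sensor that changes the length of the outer hair cell and so amplifies sound. Pendrin secretes bicarbonate into endolymph from epithelial cells of the cochlear outer sulcus, the vestibular system and the endolymphatic sac, and recessive mutations of its gene cause deafness with an enlarged vestibular aqueduct. The other members serve epithelial acid-base balance, sulphate uptake for cartilage, and roles outside the ear.

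Helios binds DNA as a member of the Ikaros family, whose core motif is GGGAA. Slc26a5 was the member with the lowest ratio of cello to wild-type, and Slc26a4, like several other members, had values that overlapped between genotypes. The promoters of Slc26a5 and Slc26a4 are shown side by side, from 250 bases before to 50 after the start in RefSeq (GRCm38.p6). The first lies at chr5:21865555-21865854 and the second at chr12:31559935-31560234, both on the minus strand, and each is printed 5′ to 3′ on its gene's strand. Capitals mark GGGAA or its reverse complement TTCCC and, in Slc26a4, also the TATA motif TATAAA.
Slc26a5: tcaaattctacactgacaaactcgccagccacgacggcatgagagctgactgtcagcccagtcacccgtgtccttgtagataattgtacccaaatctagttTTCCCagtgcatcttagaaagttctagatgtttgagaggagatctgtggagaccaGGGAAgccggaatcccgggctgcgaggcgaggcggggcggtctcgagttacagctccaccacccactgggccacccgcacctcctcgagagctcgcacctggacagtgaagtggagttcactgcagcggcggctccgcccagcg
Slc26a4: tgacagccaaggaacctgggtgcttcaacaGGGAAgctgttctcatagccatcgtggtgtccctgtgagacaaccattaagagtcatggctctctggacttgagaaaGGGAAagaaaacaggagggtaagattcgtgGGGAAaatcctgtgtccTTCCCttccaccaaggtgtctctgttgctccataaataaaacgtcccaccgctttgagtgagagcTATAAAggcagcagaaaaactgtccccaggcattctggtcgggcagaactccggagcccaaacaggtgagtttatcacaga

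The Slc26a5 window held 2 matches to the core motif and the Slc26a4 window 4, on either strand. The motif was also common elsewhere, being present in 62.7% of the 32851 promoter windows of the same length. Promoters of 7 of the 10 members were found in RefSeq's table, 8 windows in all, and 6 of these windows held the core motif. The Slc26a5 window had no TATAAA and a GC content of 58.0%, whereas the Slc26a4 window held 1 TATAAA and had a GC content of 50.0%. Over all windows 13.6% held TATAAA on either strand, and the median GC content was 52.7%. A match to these letters is a description of the sequence and does not show binding.

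Slc26a5, on chromosome 5 from 21810655 to 21865604 of GRCm38 (minus strand, protein coding, ENSMUSG00000029015), measured 9.80 and 9.69 CPM in cello, against 20.8 and 24.9 CPM in wild-type. CPM are reads of a gene scaled to all counted alignments of the library. The prestin gene was thus lower in both cello libraries than in either wild-type library, and the cello libraries were nearly equal to each other. The values rest on 416 and 460 reads in cello and on 1034 and 1050 reads in wild-type. The means were 9.75 ± 0.0763 CPM in cello and 22.9 ± 2.91 CPM in wild-type (SD, n = 2 each), a ratio of cello to wild-type of 0.426. On the log2(CPM + 0.5) scale, which understates the change of low genes, the fold change of Slc26a5 was -1.18 (SE 0.13, 95% interval -1.51 to -0.85). Its unadjusted limma p of 2.2e-04 was the 5th smallest of 14721 genes tested, and the Benjamini-Hochberg adjusted p was 0.419. DESeq2 on the recovered reads gave an adjusted p of 5.6e-07 and edgeR 0.451. RNA of whole cochleae cannot tell fewer outer hair cells from less Slc26a5 RNA per cell.

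Over all genes, limma called 0 of 14721 (0%) at an adjusted p under 0.05, while 1603 genes, 10.9%, had an unadjusted p under 0.05. Of the Slc26 genes 6 of 10 reached the filter of 1 CPM in at least 2 libraries and were tested. An unadjusted p under 0.05 was found for 1 of these 6, Slc26a5, lower in cello, where the share over all genes tested was 6.47% in that direction. Values below all wild-type values in both cello libraries were found for 2 of the 6 tested members, Slc26a5 and Slc26a11, against 28.7% of all genes tested. No tested member was above all wild-type values in both cello libraries, against 16.9% of all genes tested. Slc26a5 was the only one of the 6 called by DESeq2, which called 1.44% of the 13579 genes with a defined adjusted p. EdgeR called 0 of 14721 genes (0%) after adjustment, with 1463 (9.94%) at an unadjusted p under 0.05.

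**Figure D1:**
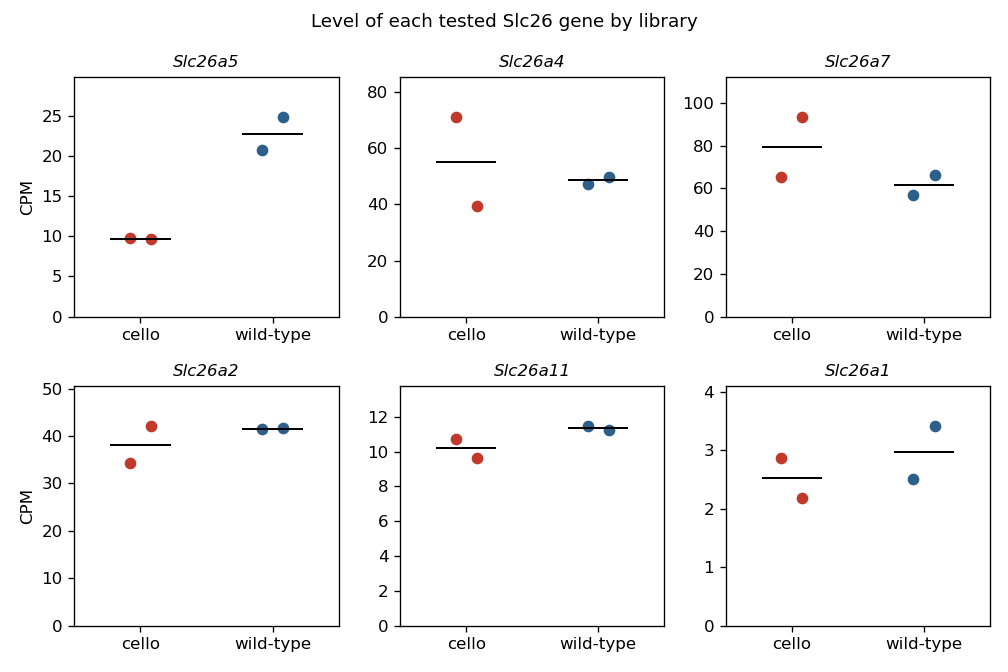
CPM of the 6 tested Slc26 genes in the 2 cello and 2 wild-type libraries (points) with the group means (lines), each panel on its own linear axis from 0. Slc26a5 lies at 9.80 and 9.69 CPM in cello, below 20.8 and 24.9 CPM in wild-type, whereas Slc26a4 differs most between the cello libraries.

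Among the bicarbonate and chloride exchangers of the inner ear, Slc26a4, the pendrin gene (chromosome 12, 31519827 to 31559969, minus strand), stood at 71.2 and 39.3 CPM in cello, against 47.4 and 49.9 CPM in wild-type. The cello libraries lay on either side of both wild-type libraries. Their ratio to each other was 1.81, that of the wild-type libraries was 1.05, and the ratio of the genotype means was 1.14. The fold change of Slc26a4 was 0.12 on the log2 scale (SE 0.27, 95% interval -0.58 to 0.82), with an adjusted limma p of 0.880. Its direction turned with cello replicate 1 left out, when the log2 fold change was -0.30. The interval spans changes in either direction, so neither a fall nor a rise of moderate size was detectable with 2 libraries per genotype.

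Slc26a7, which encodes an anion exchanger and channel found in the epithelium of Reissner's membrane of the mouse cochlea (chromosome 4, 14502430 to 14621805, minus strand), stood at 65.4 and 93.4 CPM in cello, against 56.7 and 66.2 CPM in wild-type. The higher values were in cello on average, but cello replicate 1 lay within the wild-type range. Its mean was 79.4 ± 19.8 CPM in cello and 61.5 ± 6.72 CPM in wild-type (SD, n = 2 each). The log2 fold change of Slc26a7 was 0.35 (SE 0.19, 95% interval -0.13 to 0.82), with an adjusted limma p of 0.538. Slc26a4 was highest in cello replicate 1 and Slc26a7 in cello replicate 2, so the order of these epithelial genes was opposite in the cello libraries.

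Slc26a6, which encodes a chloride, oxalate and bicarbonate exchanger of kidney, intestine and pancreas (chromosome 9, 108853283 to 108913049, plus strand), was listed at 0 in all 4 libraries. A count of 0 allows at most 0.0707 and 0.0632 CPM in cello and 0.0603 and 0.0712 CPM in wild-type (3 reads per library, counting error only). In GENCODE M21 the exons of Slc26a6 share 0% of their bases with another gene. Reads that were ambiguous between genes made up 3.40% to 3.53% of alignments and those not unique 13.0% to 14.6%, and neither kind was assigned to a gene. Whether the reads of Slc26a6 are among them was not tested, and the exact 0 is not read as absence of the transcript. Slc26a3, the chloride-bicarbonate exchanger gene of the colon (chromosome 12, 31390871 to 31473917, plus strand, beside Slc26a4), had 2 and 1 reads in cello and 3 and 0 reads in wild-type. At 3 reads in each genotype it was at the limit that a count of 0 allows.

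The 3 tested sulphate transporter genes were Slc26a2, Slc26a11 and Slc26a1, and limma called none of them, as it called 0 of 14721 genes. Slc26a2, the gene of the sulphate transporter that chondrocytes need to sulphate cartilage matrix (chromosome 18, 61192919 to 61211612, minus strand), stood at 34.3 and 42.1 CPM in cello, against 41.5 and 41.7 CPM in wild-type. Cello replicate 2 was above both wild-type libraries and cello replicate 1 below them. The log2 fold change of Slc26a2 was -0.13 (SE 0.12, 95% interval -0.43 to 0.17), with an adjusted limma p of 0.709, and it was 0.018 with cello replicate 1 left out. Slc26a11, which encodes a sodium-independent sulphate transporter (chromosome 11, 119355557 to 119381079, plus strand), had levels of 10.7 and 9.65 CPM in cello, against 11.5 and 11.2 CPM in wild-type. Both cello libraries were below both wild-type libraries, by a small margin. The log2 fold change of Slc26a11 was -0.15 (SE 0.12, 95% interval -0.47 to 0.16), with an adjusted limma p of 0.669.

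Slc26a1, the gene of a sulphate and oxalate transporter of liver and kidney (chromosome 5, 108669878 to 108675569, minus strand), had 2.87 and 2.19 CPM in cello, against 2.51 and 3.42 CPM in wild-type. The genotypes overlapped, and its log2 fold change of -0.19 had an SE of 0.23 (95% interval -0.78 to 0.40, adjusted limma p of 0.776). Its exons share 3.48% of their bases with those of Idua on the opposite strand. The strand setting of the read counting is not given in the sources used here, so reads there could be lost or misassigned.

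The 2 remaining members were under the filter. Slc26a8, which encodes a transporter of sperm and is mainly expressed in testis (chromosome 17, 28637783 to 28690233, minus strand), had 18 and 35 reads in cello and 30 and 23 reads in wild-type. The ratio of its summed reads per alignment was 1.02, with a 95% counting interval from 0.685 to 1.52 (exact conditional binomial). Slc26a10 (chromosome 10, 127171393 to 127180645, minus strand) had 14 and 17 reads in cello, against 23 and 16 reads in wild-type. The ratio of its summed reads per alignment was 0.812, with a counting interval from 0.490 to 1.34. Both counting intervals leave out the spread between libraries of a genotype. In CPM it stood at 0.330 and 0.358 in cello, against 0.463 and 0.380 in wild-type, values that did not overlap between genotypes. The nearest libraries held 17 reads in cello and 16 reads in wild-type. Of all genes tested, 28.7% were lower in cello without overlap. The exons of Slc26a10 share 17.8% of their bases with those of B4galnt1 on the opposite strand, and its level is uncertain for that reason.

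**Figure D2:**
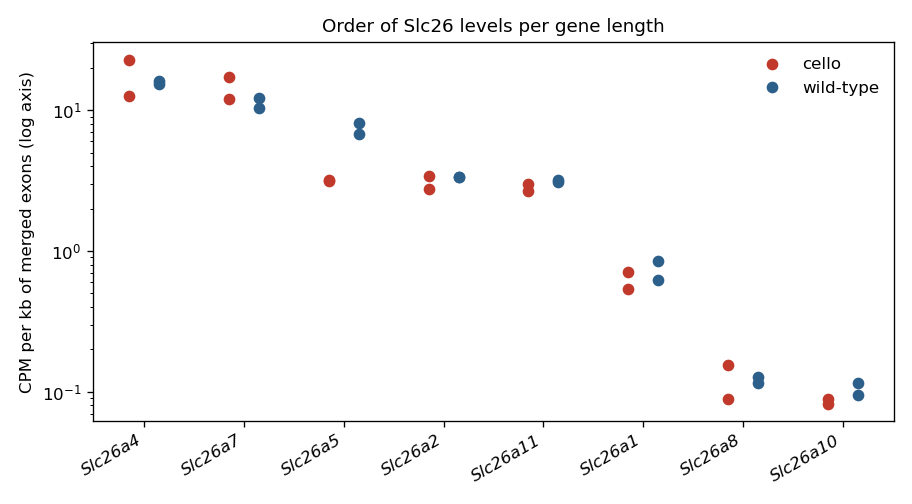
CPM per kilobase of merged exons (log axis) in each library, with genes in the order of their mean over all 4 libraries. Slc26a4 and Slc26a7 are highest and overlap, Slc26a5 follows, and Slc26a3 and Slc26a6 are left out because they had few or no reads.

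Levels of different genes were compared per kilobase of merged exons in GENCODE M21. Pendrin's gene was the highest member, at 22.9 and 12.6 CPM per kilobase in cello, against 15.2 and 16.1 in wild-type. Slc26a7 followed at 12.0 and 17.2 CPM per kilobase in cello and 10.4 and 12.2 in wild-type, and its range over the libraries overlapped that of Slc26a4. Slc26a5, restricted to a small number of sensory cells, came next in the tissue, at 3.19 and 3.15 CPM per kilobase in cello, against 6.77 and 8.11 in wild-type. In wild-type, Slc26a5 was above both Slc26a2 (3.35 and 3.37 CPM per kilobase) and Slc26a11 (3.18 and 3.11) in each library. In cello it lay inside the range of Slc26a2 (2.77 and 3.40 CPM per kilobase) and just above Slc26a11 (2.98 and 2.67). Slc26a1 was next, at 0.541 to 0.843 CPM per kilobase over all libraries, and it did not overlap its neighbours. Slc26a8 and Slc26a10 were below 0.16 CPM per kilobase in every library and overlapped. With the length of the longest coding transcript in place of merged exons, an alternative chosen after seeing the data, all 10 members kept their places by the mean over libraries. Within cello, Slc26a5 was then below Slc26a2 and Slc26a11 (3.31 and 3.27 CPM per kilobase, against 4.39 and 5.39 for Slc26a2 and 3.99 and 3.58 for Slc26a11).

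The summed level of the 10 members was 195 and 197 CPM in cello and 181 and 198 CPM in wild-type, so the family total overlapped between genotypes. Within this total, Slc26a5 made up 5.02% and 4.91% of the reads in cello, against 11.5% and 12.6% in wild-type. Slc26a4 made up 36.5% and 19.9% in cello and 26.1% and 25.2% in wild-type. Slc26a7 made up 33.5% and 47.3% in cello and 31.3% and 33.4% in wild-type. The share of prestin reads therefore separated the genotypes, whereas the shares of Slc26a4 overlapped. Those of Slc26a7 were higher in both cello libraries, with replicate 1 only just above wild-type. These are shares of CPM and depend on gene length and on the other members. The median log2 fold change of the 5 tested members other than Slc26a5 was -0.13, beside -0.03 over all genes tested.

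The prestin gene was set against other hair cell genes in the same library. For each read of Otof, the otoferlin gene of the inner hair cell synapse, there were 0.146 and 0.153 reads of Slc26a5 in cello, against 0.316 and 0.401 in wild-type. For each read of Myo6, a motor protein gene of both hair cell types, there were 0.0406 and 0.0429 in cello, against 0.0867 and 0.101 in wild-type. For each read of Myo7a, also a myosin gene of both types, there were 0.467 and 0.682 in cello, against 1.19 and 1.55 in wild-type. In these 3 ratios both cello libraries were below both wild-type libraries, with log2 differences of -1.25 for Otof, -1.16 for Myo6 and -1.27 for Myo7a. The comparator genes themselves had log2 fold changes of 0.03 for Otof, -0.06 for Myo6 and 0.04 for Myo7a, so these ratios largely repeat the difference of Slc26a5 itself. Myo6 and Myo7a had the smallest differences of the 12 tested genes of both hair cell types, of which 10 were below 0 (beside 56.6% of all genes tested), with a median of -0.47. In that list 7 genes were lower and 0 higher at an unadjusted limma p under 0.05, beside 6.47% and 4.42% of all genes tested. Relative to Pou4f3, a transcription factor gene that hair cells need to survive, Slc26a5 stood at 0.675 and 0.634 reads per read in cello, against 0.765 and 0.897 in wild-type, a log2 difference of -0.34. Pou4f3 was itself lower in cello (14.5 and 15.3 CPM, against 27.2 and 27.8 CPM in wild-type, adjusted limma p of 0.419). Relative to Ocm, the gene of the calcium buffer oncomodulin of outer hair cells, the order was the opposite, at 0.289 and 0.585 in cello, against 0.179 and 0.232 in wild-type. The ratios are given as values and were not tested. RNA of whole cochleae does not show which cells the reads of a comparator come from. Myo6 had the highest level of the comparators, at 241 and 226 CPM in cello, against 240 and 248 CPM in wild-type. With 2 libraries per genotype, the smallest two-sided p of an exact permutation test is 0.333.

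**Figure D3:**
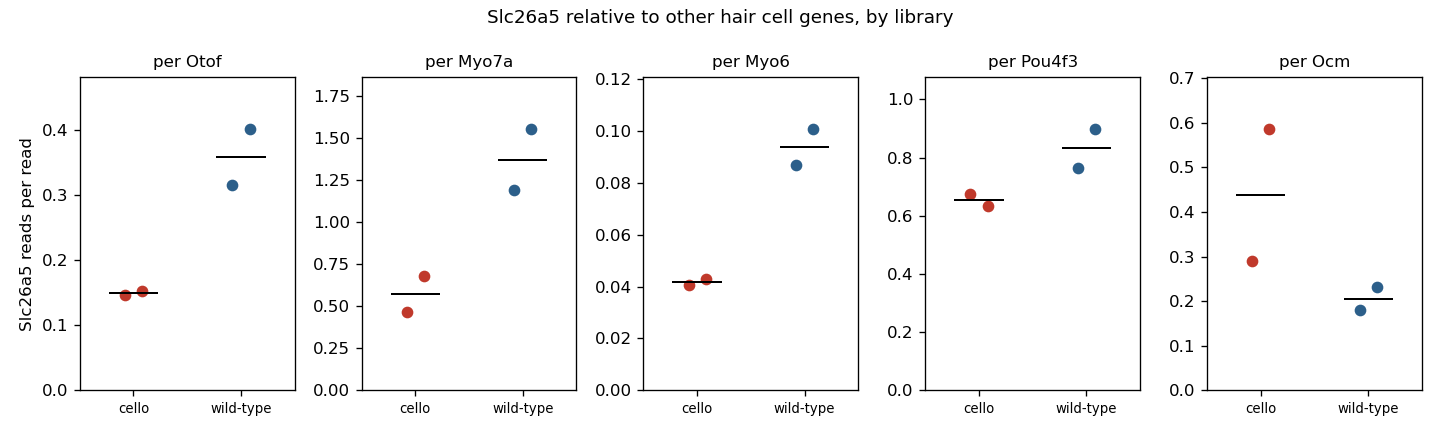
Reads of Slc26a5 per read of Otof, Myo7a, Myo6, Pou4f3 and Ocm in each library (points) with group means (lines), each panel on its own linear axis from 0. The cello libraries are lower for the first 4 genes (0.146 and 0.153 per Otof read, against 0.316 and 0.401 in wild-type) and higher for Ocm.

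Outer hair cell genes other than Slc26a5 had log2 fold changes below 0 in 10 of 11 cases, beside 56.6% of all genes tested with a log2 fold change below 0. Their median was -0.34 on that scale, and 8 of the 11 were lower at an unadjusted limma p under 0.05, beside 6.47% of all genes tested. The remaining gene, Dnm3, which encodes a dynamin, was higher at an unadjusted limma p under 0.05 (log2 fold change 0.55, SE 0.18), beside 4.42% of all genes tested. With Slc26a5 included the median was -0.41 over 12 genes. Medians were also low for general epithelial (-0.40), stria vascularis (-0.41) and supporting cell genes (-0.40), and for genes of both hair cell types (-0.47). The median of inner hair cell genes was -0.05, and those of neuronal and Schwann cell genes were above 0. The outer hair cell list was written with earlier results of these data known, and it is not independent of them. Ocm had the lowest log2 fold change of the list (-2.21, SE 0.32), followed by Strc, the gene of stereocilin that links stereocilia (-1.23, SE 0.14), Slc26a5, and Lmod3, an actin nucleator gene (-1.16, SE 0.10). Ocm stood at 33.9 and 16.6 CPM in cello, against 116 and 108 CPM in wild-type, and so differed between the cello libraries while Slc26a5 did not. The intervals of Slc26a5, Strc and Lmod3 overlapped one another. Each of the 3 had an adjusted limma p of 0.419. The efferent receptor gene Chrna9 and the potassium channel gene Kcnn2, of the same cells, stood at -0.22 (95% interval -0.69 to 0.25) and -0.02 (95% interval -0.35 to 0.32), and neither interval reached that of Slc26a5. Chrna10, the partner subunit gene of Chrna9, stood at -0.53 (95% interval -0.96 to -0.11), which overlapped the interval of Slc26a5. The differences between these genes were not tested.

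**Figure D4:**
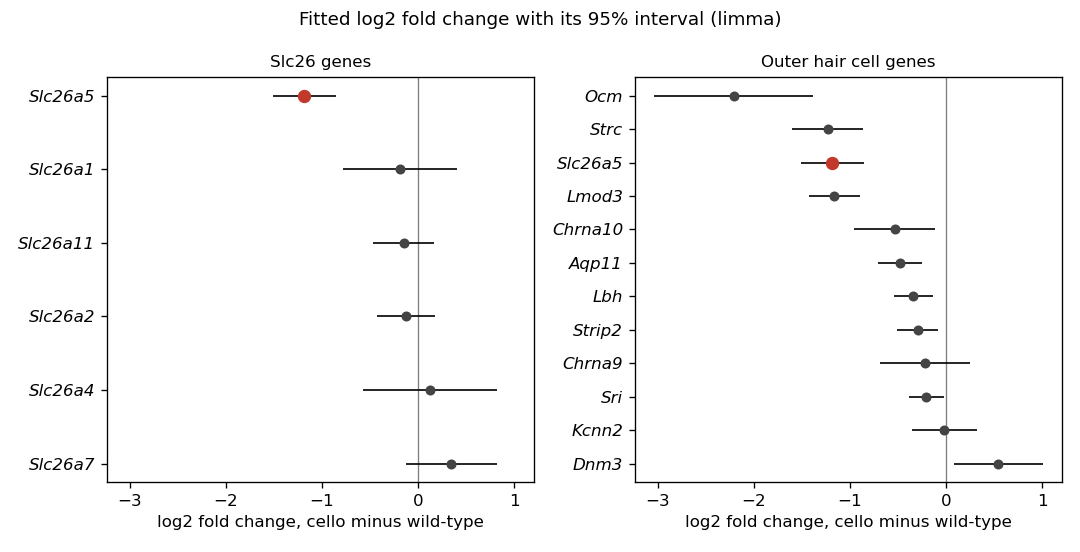
Log2 fold change, cello minus wild-type, of the tested Slc26 genes (left) and of outer hair cell genes (right), with 95% limma intervals as lines and Slc26a5 in red. Slc26a5 (-1.18) stands apart from the other Slc26 genes, whose intervals include 0, and lies between Strc (-1.23) and Lmod3 (-1.16).

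Over the 4 libraries the genes whose profile was nearest to that of Slc26a5 were Lmod3, Wdfy1, Rab3b, Strc and Lad1. The distance is the root mean square difference of log2 values centred on each gene's mean, over 13647 genes with established names. It was 0.0442 for Lmod3, 0.0917 for Wdfy1, an endosomal signalling gene, 0.0992 for Rab3b, a vesicle trafficking gene, 0.114 for Strc and 0.138 for Lad1, a basement membrane anchor gene. Wdfy1 and Lad1 lie on chromosome 1, the chromosome of Ikzf2, whereas Lmod3, Rab3b and Strc lie on chromosomes 6, 4 and 2. The part of this position in their values was not tested. Rab3b stood at 2.90 and 3.22 CPM in cello, against 6.84 and 7.19 CPM in wild-type. For Slc26a4 the nearest were Col4a4, Rag1, Col11a2, Pde8a and Ccdc88b, at distances from 0.0169 to 0.0346. Each of these 5 was highest in cello replicate 1 and lowest in cello replicate 2, as pendrin's gene was, which follows from their choice by nearness. Col11a2, a collagen gene of cartilage and the tectorial membrane, stood at 4081 and 2282 CPM in cello, against 2691 and 2782 CPM in wild-type. With 4 libraries such likeness is a description.

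The cello libraries differed from each other in markers of several tissues. The summed level of 6 bone genes was 2091 and 467 CPM in cello, against 909 and 926 CPM in wild-type. The sum of 9 supporting cell genes was 1172 and 3289 CPM in cello, against 3094 and 3263 CPM in wild-type. Slc26a4 was higher in cello replicate 1, as was the sum of the bone genes. The sums of 5 fibrocyte genes (6784 and 4815 CPM in cello) and 6 cartilage genes (10862 and 9351 CPM) had that order too. The supporting cell sum and the other sums given below had the opposite order in cello. With 2 libraries such an order is a description. Most of the gap in the supporting cell sum came from the tectorial membrane genes Tectb, at 748 and 2633 CPM in cello, and Tecta, at 35.1 and 251 CPM in cello. Of the supporting cell genes 7 of 8 tested were below 0, with a median of -0.40 that was -0.10 without cello replicate 1. Between genotypes, 10 of 10 general epithelial genes had log2 fold changes below 0, beside 56.6% of all genes tested (median log2 fold change -0.40, summed level 936 and 992 CPM, against 1200 and 1294 CPM in wild-type). So had 7 of 7 genes of the stria vascularis (median -0.41, summed level 1730 and 1854 CPM, against 2307 and 2466 CPM in wild-type). At an unadjusted limma p under 0.05, 7 of the 10 epithelial and 7 of the 7 stria genes were lower and 0 higher. Of the 8 supporting cell genes 4 were lower and 1 higher at that threshold. Over all genes tested these shares were 6.47% and 4.42%. The summed levels of 8 inner hair cell genes were 493 and 500 CPM in cello, against 347 and 432 CPM in wild-type, with 4 of 8 genes below 0 and a median of -0.05. The gap in that sum came mostly from Calb2, at 183 and 220 CPM in cello, against 57.7 and 124 CPM in wild-type. The sum of 7 neuronal genes was 507 and 584 CPM in cello, against 132 and 382 CPM in wild-type, and that of 5 Schwann cell genes was 1739 and 2181 CPM in cello, against 544 and 1344 CPM in wild-type. Of the neuronal genes 6 of 7 were above 0 (median 1.04), and of the Schwann cell genes 5 of 5 (median 1.26), with 3 of each list higher at an unadjusted limma p under 0.05, beside 4.42% of all genes tested. Wild-type replicate 1 was the lowest library in both sums, and without it each median was 0.54. In each of these marker lists no gene was at 0 in all libraries. The part of these differences in the values of the Slc26 genes was not tested. Ikzf2 itself stood at 17.7 and 16.9 CPM in cello, against 22.9 and 18.5 CPM in wild-type, which does not check the labels because cello alters the protein.

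Of 10 genes that work with pendrin or in the same cells 7 were tested, and 6 were below 0, beside 56.6% of all genes tested. Their median log2 fold change was -0.19, and 2 were lower at an unadjusted limma p under 0.05, beside 6.47% of all genes tested. By library, the median of their log2 values, centred on each gene's mean, was 0.17 and -0.29 in cello, against 0.18 and 0.17 in wild-type. Only cello replicate 2 was thus low by that median. Atp6v0a4, a proton pump subunit gene of acid-secreting epithelia, stood at 16.0 and 10.9 CPM in cello, against 28.0 and 22.6 CPM in wild-type (log2 fold change -0.90, SE 0.21, adjusted limma p of 0.419, adjusted DESeq2 p of 0.046). Bmp4, a signal of the outer sulcus, stood at 31.8 and 32.0 CPM in cello, against 40.7 and 40.4 CPM in wild-type (-0.34, SE 0.08). Kcnj16, a potassium channel gene, stood at 134 and 63.0 CPM in cello, against 145 and 155 CPM in wild-type (-0.71, SE 0.34). Its unadjusted limma p was 0.094, and most of the gap was in cello replicate 2. Foxi1, the activator of pendrin's gene in the endolymphatic sac, had 0.0236 and 0 CPM in cello and 0 CPM in both wild-type libraries, where 3 reads correspond to 0.0603 to 0.0712 CPM.

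The Slc4 genes, which encode the other family of bicarbonate transporters, showed no common direction. Of 9 tested, 4 were below 0 and 5 above it, with a median of 0.04, and 1 was higher at an unadjusted limma p under 0.05, beside 4.42% of all genes tested. This was Slc4a3, an anion exchanger gene, at 35.7 and 36.4 CPM in cello, against 29.6 and 25.8 CPM in wild-type (log2 fold change 0.38, SE 0.10, adjusted limma p of 0.423). Slc4a5 (-0.41, SE 0.21) and Slc4a10 (0.91, SE 0.50), both sodium-coupled bicarbonate transporter genes, had unadjusted limma p of 0.10 and 0.13. Slc4a10 stood at 47.6 and 15.8 CPM in cello, against 13.0 and 15.8 CPM in wild-type, so cello replicate 2 lay within the wild-type range. Among chloride channel genes 11 of 14 were tested, with a median of 0.01. Of these, 3 were lower and 2 higher at an unadjusted limma p under 0.05, beside 6.47% and 4.42% of all genes tested. Ano1, a calcium-activated chloride channel gene of supporting cells before hearing begins, stood at 182 and 198 CPM in cello, against 279 and 259 CPM in wild-type (-0.50, SE 0.09, adjusted limma p of 0.419, adjusted DESeq2 p of 0.0028). Clcn6, the gene of a late endosomal chloride-proton exchanger, stood at 40.1 and 39.7 CPM in cello, against 29.2 and 29.4 CPM in wild-type (0.44, SE 0.08, adjusted DESeq2 p of 0.014).

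All 15 genes of a chosen list of sulphate activation, transport and sulphation genes were tested, a list that leaves out other sulphotransferase genes. Of these 15, 8 were below 0 and 7 above it, with a median of -0.01. At an unadjusted limma p under 0.05, 0 were lower and 3 were higher, beside 4.42% of all genes tested in that direction. Chst3, a chondroitin sulphotransferase gene, stood at 12.5 and 13.5 CPM in cello, against 7.98 and 9.92 CPM in wild-type (log2 fold change 0.52, SE 0.15). Slc13a4, a sodium-sulphate cotransporter gene, and Bpnt1, the gene of a phosphatase that clears a by-product of sulphation, had log2 fold changes of 0.26 (SE 0.09) and 0.23 (SE 0.09). The adjusted limma p of these 3 genes lay between 0.429 and 0.444.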

How the data were processed

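RNA of whole cochleae was made into TruSeq libraries, per the labels' protocols. The deposited tables give CPM, 1 table per library. TopHat and GRCm38 are named as aligner and build by the submitters' processing notes, and the read counter, strand setting and annotation release are not stated there. The CPM were scaled by the authors to every counted alignment, 42152616 to 49719984 per library, of which 70.0% to 72.8% fell in genes. The other 5 entries name no gene, held 27.2% to 30.0% and were not tested. All CPM (100%) were whole multiples, within 0.001 of a read, of the smallest value in their table, which gave whole reads. Of 37239 identifiers, 36504 matched a symbol in GENCODE M21 (GRCm38).

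The 14721 genes that reached 1 CPM in at least 2 libraries were transformed as log2(CPM + 0.5) and fitted by genotype, two-sided, with limma 3.58.1 in R 4.3.3, using a variance trend, and p-values were adjusted over all of them by Benjamini-Hochberg. On the recovered reads edgeR 4.0.16 (quasi-likelihood) and DESeq2 1.42.0 (1142 adjusted p undefined) were run as alternatives. Further alternatives were pseudocounts, filters, scalings, the replicate block and leaving out each library. The limma and DESeq2 fits, but not edgeR, were run on simulated counts with changes set in advance. The simulated spread between libraries was fixed and not taken from these data, so that run checks the code only. Members and gene lists were chosen with earlier results of these data known. Beside the members, the text names up to 3 genes of each related list by smallest unadjusted p, 5 hair cell comparators and the 5 nearest profiles. Chrna9, Chrna10, Kcnn2, Dnm3, Calb2, Tecta, Tectb, Foxi1, Idua and B4galnt1 were named after their values were seen. A named gene of a related list is not reported here by itself.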

Additional observations from a re-analysis of the deposited data

How the results depend on the processing

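Over the 15 other settings, the log2 fold change of Slc26a5 kept its sign, between -1.31 and -1.06, with adjusted p from 5.6e-07 (DESeq2) to 0.931 (limma without wild-type replicate 1). DESeq2 gave -1.19 for Slc26a5 and called 195 genes, 1 of them a member, against 0 genes in limma. Leaving out each library in turn gave 0 to 90 called genes, the 90 without wild-type replicate 2, and Slc26a5 log2 fold changes from -1.31 to -1.06, with 0 members called. Without cello replicate 1, the signs of Slc26a4 (-0.30, against 0.55 without cello replicate 2) and Slc26a2 (0.018, against -0.27 without cello replicate 2) turned. The cause was not tested. Slc26a7 stood at 0.60 without cello replicate 1 and at 0.09 without cello replicate 2. Slc26a1 has no value at a mean CPM of at least 5. Equal replicate numbers are not said to share a litter, and deviations of same-numbered libraries correlated at 0.13 across genes. With the replicate number as a block 0 genes were called, and Slc26a5 stood at -1.18 with an adjusted limma p of 0.232. With 2 libraries per genotype, differences smaller than those between libraries were not detectable.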
